A study of Mus musculus with 56 samples.

Results

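The 28 tumors compared here were chosen from 56 mouse mammary tumors by a keratin score, the mean log2 expression of Krt16, Krt6a and Krt10. For each gene the probe set with the highest mean was used. Tumors were ranked within the 32 of wild-type (WT) hosts and the 24 of Tgfb1 heterozygote (Het) hosts. The 8 WT and 6 Het tumors with the highest scores formed the top group of 14, and the 8 WT and 6 Het tumors with the lowest scores formed the bottom group of 14. The 28 tumors of middle score served as a separate look at the same genes. The proposed name for this contrast was keratinizing against non-keratinizing tumors; many of the terminal markers below go against that name for most top tumors, so the groups are called top score and bottom score.

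Every tumor grew from p53-null mammary tissue, itself not irradiated, that was transplanted into a fat pad cleared of its own epithelium when the female BALB/c host was 3 weeks old. The host mouse received radiation or a sham treatment 3 days ahead of the transplant; the labels give no dose, nor whether any host bore more than 1 tumor. Sham-irradiated WT hosts gave 9 tumors, irradiated WT hosts 23, sham-irradiated Het hosts 6 and irradiated Het hosts 18, and each tumor was hybridised to 1 array. Loss of p53 was common to all tumors of both score groups.

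Keratins are the filament proteins of epithelial cells and assemble in pairs of a type I and a type II chain. Krt5 and Krt14 belong to the basal layer of stratified epithelia and to the basal cells of the mammary gland, Krt8 and Krt18 to simple and luminal epithelium, and Krt1 and Krt10 to the suprabasal epidermis. Krt6a, Krt6b, Krt16 and Krt17 belong to hair follicles and to wounded or rapidly growing epidermis. Keratinization proper ends with a cornified envelope, in which loricrin (Lor), involucrin (Ivl) and small proline-rich (Sprr) proteins are cross-linked by transglutaminases such as Tgm1. Expression was measured on bulk tumor RNA, where more cells of a type and more RNA per cell cannot be told apart.

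The 3 score genes contributed unequally to the ranking. In WT hosts the score ran from 7.15 to 8.63 in the top tumors (median 7.77) and from 5.42 to 5.95 in the bottom tumors (median 5.78). In Het hosts it ran from 7.52 to 11.06 (median 8.18) and from 4.98 to 6.15 (median 5.76). Krt6a set most of the gap, with group means that differed by 4.46 log2 units in WT and 5.30 in Het hosts. Krt16 differed by 1.29 in WT and 3.07 in Het hosts, and Krt10 by only 0.30 and 0.36, with overlapping ranges. These values chose the groups and carry no test. At the edges of the groups, WT_irradiated replicate 24 entered the top at 7.15 while WT_irradiated replicate 48 stayed outside at 7.07, and WT_irradiated replicate 11 entered the bottom at 5.95 against 5.96 for WT_irradiated replicate 22. In Het hosts, Het_irradiated replicate 55 entered the top at 7.52 against 7.39 for Het_sham replicate 15, and Het_irradiated replicate 1 entered the bottom at 6.15 against 6.22 for Het_irradiated replicate 4.

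**Figure D1:**
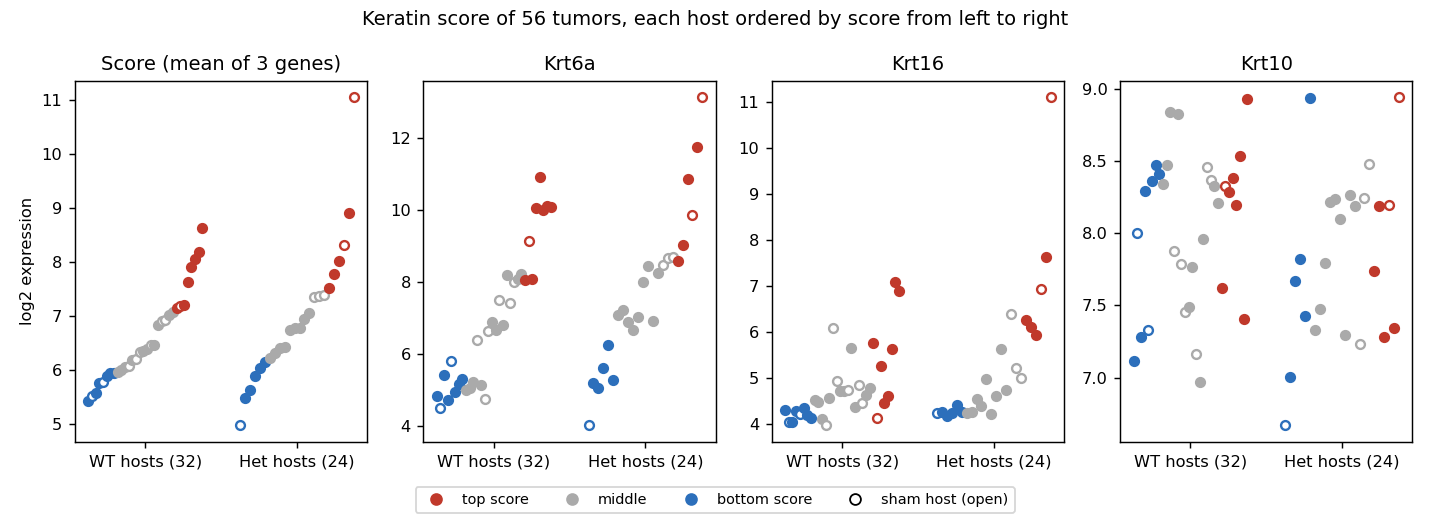
Log2 expression of the keratin score and of its 3 genes in the 56 tumors, each host genotype ordered by score from left to right; red points are the top group, blue the bottom group, grey the tumors of middle score, and open points sham-irradiated hosts. Krt6a follows the score closely, Krt16 rises in part of the top tumors, with Het_sham replicate 19 highest at 11.10, and Krt10 overlaps between the groups.

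Many genes of the cornified layer were at low values in most top-score tumors. Of 18 markers of terminal squamous differentiation examined, 13 did not exceed the median of all values on the arrays (5.83) on 6 or more arrays. Krt2, Krt13, Ivl, Sprr3, Dsc1, Dsc3, Flg and Rptn were above that median in 0 of 14 top tumors; as probe sets differ in their own background, the median is only a rough floor. Tgm1 was above it in 14 of 14 top and 12 of 14 bottom tumors, Krt78 in 12 and 10, Lor in 11 and 12, Sprr1a in 8 and 4, and Casp14 in all 28. Krtdap, a keratinocyte differentiation peptide, was above it in 4 of 14 top and 0 of 14 bottom tumors, and Krt1, Krt4 and Sprr1b in 1 top tumor each. The same cutoff served both hosts, although array medians were lower in Het than in WT tumors. Set against the bottom median of their own host, 13 of 14 top tumors were higher for Tgm1, Krt4, Krtdap and Sprr1b, and 11 for Sprr1a. The count was 10 for Dsc1, 9 for Dsc3, and 8 for Krt1, Dsg1a and Rptn. It was 7 for Krt2, Krt78, Lor, Sprr3 and Flg, 4 for Krt13 and Ivl, and 2 for Casp14. Only 3 of 14 top tumors exceeded the highest bottom tumor of their host for Tgm1, and 3 for Sprr1a.

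The tumors with the highest values of these markers are named here after their values were seen. Het_sham replicate 19, with the highest score, had Krt1 at 7.12, Sprr1b at 7.48, Krtdap at 10.002 and Sprr1a at 9.08. It also had the basal keratin Krt5 at 13.001 and the hemidesmosomal collagen Col17a1 at 11.16. Het_sham replicate 38 shared part of this, with Sprr1a at 9.23, Krtdap at 6.81 and Krt5 at 9.48, while Krt1 was at 4.73. Het_irradiated replicate 32 had the highest Sprr1a, 13.91, with Krt4 at 9.09 and Krt78 at 9.24, but Krt1 at 4.31. Krt4 is a keratin of mucosal rather than skin epithelium. WT_irradiated replicate 24 had Dsg1a, a desmosomal cadherin of upper epidermal layers, at 11.86 and Krtdap at 6.96, and WT_irradiated replicate 12 had Dsg1a at 7.81. WT_irradiated replicate 44 had the hair follicle keratins Krt25 at 7.35 and Krt27 at 7.69. Krtdap was thus high in several top tumors, and Krt1, Krt4 and Krt25 in 1 each. High Sprr1a was not limited to the top group. It was at 8.07 in WT_sham replicate 46 and 7.65 in Het_irradiated replicate 29, both bottom tumors. For Sprr1a 3 of 6 Het top tumors, but 0 of 8 WT top tumors, exceeded the highest bottom tumor of their host.

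**Figure D2:**
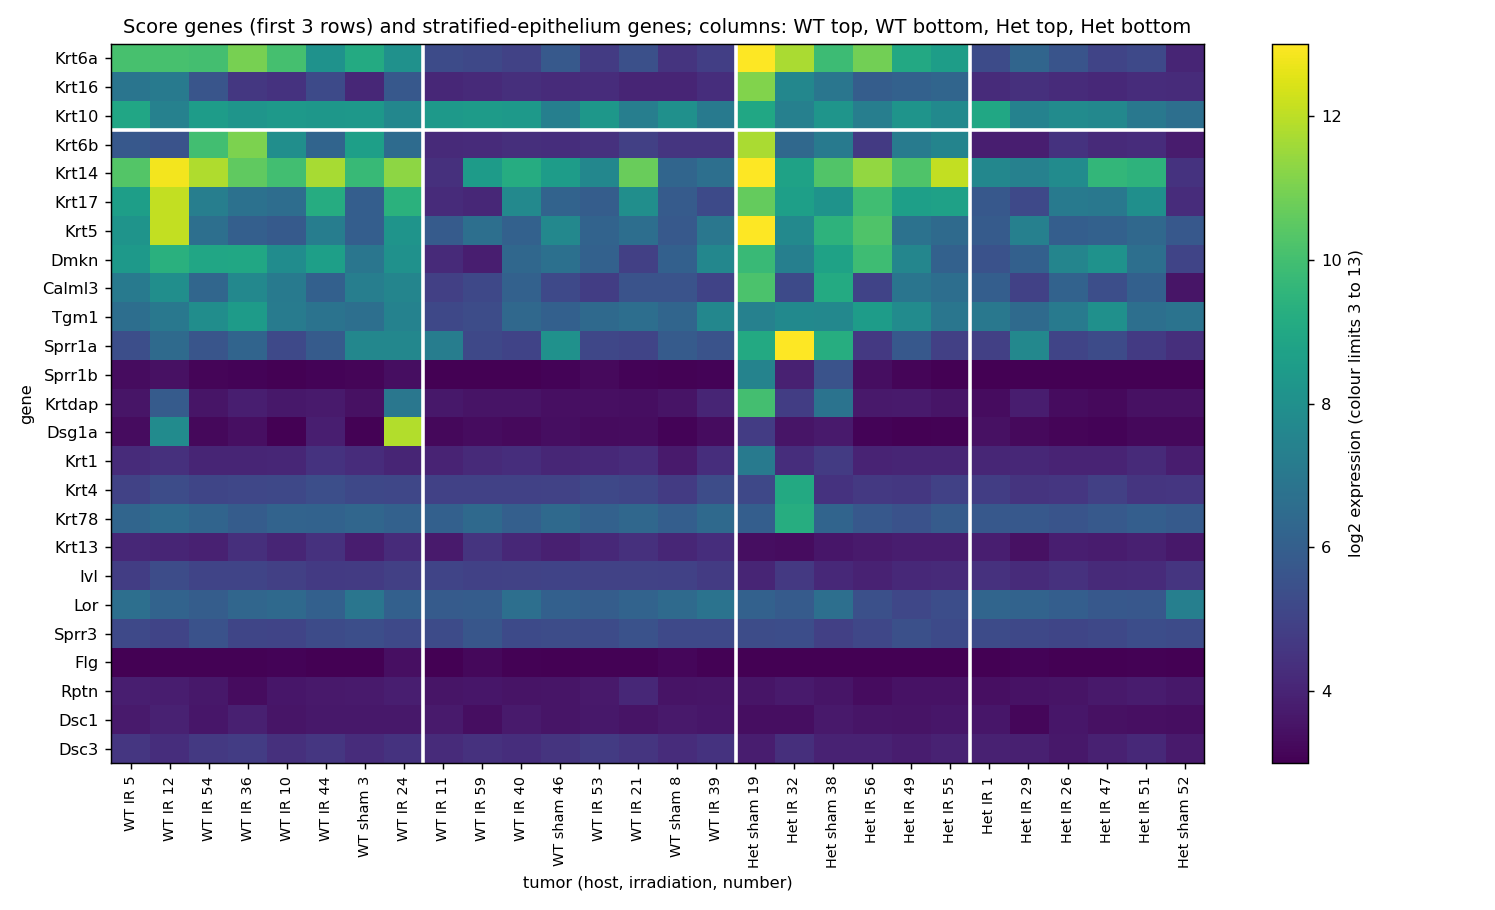
Log2 expression (color, limits 3 to 13) of the score genes and of genes of stratified epithelium in the 28 tumors, one column per tumor, grouped as WT top, WT bottom, Het top and Het bottom and ordered by score within each. Krt6a and Krt14 are bright across the top columns, whereas Krt1, Krt4, Sprr1b, Krtdap and Dsg1a are bright in only a few of them.

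Across 12505 genes, with the 3 score genes left out, 14 were higher in the top-score tumors and 0 lower at a Benjamini-Hochberg adjusted p under 0.05 (limma, host genotype as a block). The genes called higher were 0.112% of those tested, those called lower 0%, and 13 of the 14 differed by at least 2-fold. An unadjusted p under 0.05 was reached by 1178 genes, 718 higher and 460 lower, and the median log2 difference of all genes was 0.00. Since a measured score chose the groups, a call is an association with that score. The 14 genes were Krt6b, Krt14, Lama3, S100a14, Ly6d, Anxa8, Bnc1, Dmkn, Eva1c, Sfn, Meis1, Aoc1, Rdh10 and Matn4; the last pair lies outside the rule for named genes and is named because the list is short. The count depended on how the 3 score genes were weighted. Each gene was also standardized within its host genotype, so that Krt10 counted as much as Krt6a. Of the 14 top tumors 11 stayed in their group, and of the 14 bottom tumors 10. Limma then called 0 genes (lowest adjusted p = 0.0819, 1007 genes with an unadjusted p under 0.05). All 14 genes kept a positive difference, Matn4 at 0.01. As the shared tumors had already selected these genes, the kept sign is no separate support.

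Genes of the basal layer and its anchorage to the basement membrane were among the largest differences. Krt14, the basal partner of Krt5, ran from 9.75 to 12.82 in WT top tumors (median 10.93) and from 4.39 to 10.71 in WT bottom tumors (median 8.05). In Het hosts it ran from 8.78 to 13.38 (median 10.84) and from 4.46 to 9.64 (median 7.72). All 14 top tumors lay above the bottom median of their host, and 9 above the highest bottom tumor, so the groups overlapped. The log2 difference was 3.30 (SE 0.58, limma adjusted p = 0.00894), a 9.82-fold difference. The probe set used for Krt14 belongs to a class that can cross-hybridise with related genes; a second probe set gave 3.26 (limma adjusted p = 0.00702).

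Lama3 encodes the alpha chain of the laminin that anchors epithelium to its basement membrane. Its values were 6.95 to 11.38 in WT top tumors (median 8.74) against 5.0 to 7.04 in WT bottom tumors (median 5.97), and 8.46 to 12.09 in Het top tumors (median 8.77) against 4.48 to 8.14 (median 6.39). The log2 difference was 2.95 (SE 0.46, limma adjusted p = 0.00166), and 13 of 14 top tumors exceeded every bottom tumor of their host. WT_irradiated replicate 24 was the exception. Bnc1, basonuclin, a zinc finger protein of basal keratinocytes, was higher by 2.57 (SE 0.54, limma adjusted p = 0.0489), although WT_irradiated replicate 24 was at 3.75, below the lowest bottom tumor of WT hosts at 3.80. Sfn, stratifin, an epithelial adaptor protein, was higher by 1.34 (SE 0.28, limma adjusted p = 0.0489), and 11 of 14 top tumors lay above all bottom tumors of their host.

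Of the 14 genes of the list of basal keratins and hemidesmosome components, 13 were tested, 12 had positive differences and 4 were called, with a median of 1.52. Krt5 itself had a difference of 1.76 (SE 0.60, limma adjusted p = 0.311). In WT hosts Krt5 ran from 5.85 to 12.07 in top tumors (median 6.94) and from 5.78 to 7.65 in bottom tumors (median 6.39), and in Het hosts from 6.47 to 13.001 (median 8.59) and from 5.74 to 7.37 (median 6.03). The wide top range came from WT_irradiated replicate 12, Het_sham replicate 19 and Het_irradiated replicate 56, and the other top tumors lay at or below 9.48. Itgb4, the integrin of hemidesmosomes, had 1.22, Krt15 1.53, Lamb3 1.52 and Col17a1 1.94 (limma adjusted p = 0.222, 0.227, 0.227 and 0.284). Dst, a hemidesmosomal linker, was at -0.85 (limma adjusted p = 0.397).

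Krt6b was the stratified keratin called. It ran from 5.54 to 11.03 in WT top tumors (median 7.23) and from 4.20 to 4.89 in WT bottom tumors (median 4.40), and from 4.71 to 11.71 in Het top tumors (median 7.14) against 3.74 to 4.47 (median 4.01). In both hosts the groups did not overlap, and the log2 difference was 3.31 (SE 0.55, limma adjusted p = 0.00351). Krt6b is a near-identical copy of the score gene Krt6a, so its probe set can bind Krt6a transcripts and its difference is not independent of the score. The copies did not rank the tumors alike: WT_irradiated replicates 5 and 12, with Krt6a at 10.09 and 10.10 exceeded in WT hosts only by WT_irradiated replicate 36, had the lowest Krt6b of the WT top tumors, 5.74 and 5.54. Krt17, which pairs with Krt6 proteins, had 2.57 and missed the threshold (SE 0.54, limma adjusted p = 0.0503), with all 14 top tumors above the bottom median of their host. Krt79 had 2.22 (limma adjusted p = 0.209), with 3.04 in WT and 1.13 in Het hosts. The list of suprabasal and stratified keratins had 14 genes on the array and 6 tested, all 6 with positive differences and a median of 1.45; without the filter on low values the median of the 14 was 0.29, and limma then called 8 of all 18191 genes higher (0.044%), Krt6b among them.

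Dmkn, dermokine, a secreted protein of differentiating epidermis, was the member of the cornified envelope list called. It ran from 6.92 to 9.33 in WT top tumors (median 8.51) and from 3.82 to 7.63 in WT bottom tumors (median 6.09), and from 6.09 to 9.91 in Het top tumors (median 8.17) against 5.06 to 8.10 (median 6.36). The groups separated better in WT hosts, where 7 of 8 top tumors lay above all bottom tumors, than in Het hosts, where 3 of 6 did; the difference between hosts did not pass (-0.92, limma adjusted p = 0.879). Over both hosts Dmkn was higher by 2.27 (SE 0.43, limma adjusted p = 0.0225). The call ended without WT_irradiated replicate 12 (2.18, limma adjusted p = 0.0552), WT_irradiated replicate 54 (2.21, 0.0536), Het_sham replicate 19 (2.17, 0.05) or Het_sham replicate 52 (2.18, 0.0562). Calml3, a calmodulin-like protein of epithelium, had 1.83 (limma adjusted p = 0.0593), Sbsn, suprabasin, 1.39 (0.233), Asprv1, a protease of the upper epidermis, 1.24 (0.247), and Tgm1 0.87 (0.161). Of 42 cornified envelope genes on the array 15 were tested, 10 of them with positive differences and a median of 0.49; over the 42 without a filter the median was 0.08, with 29 positive.

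S100a14, a calcium-binding protein of the S100 family, had the lowest p of all genes. It ran from 7.80 to 9.95 in WT top tumors (median 8.91) and from 4.99 to 6.81 in WT bottom tumors (median 5.92), without overlap. In Het hosts it ran from 7.76 to 11.38 (median 9.50) and from 5.53 to 8.58 (median 6.61), where Het_irradiated replicate 47 of the bottom group at 8.58 exceeded the lowest top tumor. The log2 difference was 2.94 (SE 0.33, limma adjusted p = 1.68e-05), a 7.70-fold difference, and S100a14 was the gene called within each host. All 10 tested members of the list of S100 and antimicrobial genes had positive differences, with a median of 0.46 and no other call. S100a10, S100a16 and S100a6 were at 0.52, 0.52 and 0.42 (limma adjusted p = 0.42, 0.486 and 0.549).

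Anxa8 encodes an annexin, a calcium-dependent membrane-binding protein. It ran from 7.08 to 9.81 in WT top tumors (median 8.71) against 5.52 to 8.19 (median 6.51), and from 8.65 to 11.73 in Het top tumors (median 9.20) against 4.99 to 7.27 (median 6.44). The Het groups did not overlap, whereas in WT hosts 3 bottom tumors exceeded the lowest top tumor. The difference was 2.60 (SE 0.38, limma adjusted p = 0.00106), and a second probe set gave 2.35 (limma adjusted p = 0.00105). Ly6d, a lipid-anchored surface protein of keratinocytes, was higher by 2.82 (SE 0.59, limma adjusted p = 0.0489). Its highest values were 13.03 in Het_irradiated replicate 32 and 11.87 in WT_irradiated replicate 24, and all 14 top tumors lay above the bottom median of their host.

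Several of the other genes called have no place in the keratin program lists. Eva1c, a membrane protein, was higher by 1.49 (SE 0.20, limma adjusted p = 0.000358); it ran from 7.20 to 8.41 in WT top tumors (median 7.95) and from 5.56 to 7.67 in WT bottom tumors (median 6.13). In Het hosts Eva1c ran from 7.14 to 8.52 (median 7.60) and from 5.19 to 6.59 (median 6.36), with no overlap. Aoc1, an amine oxidase that degrades histamine and polyamines, was higher by 1.11 (SE 0.17, limma adjusted p = 0.00138), and 12 of 14 top tumors lay above all bottom tumors of their host. Its levels were low, from 5.58 to 7.93 in WT top tumors (median 6.75) and 5.22 to 5.75 in WT bottom tumors (median 5.50). Rdh10, which oxidises retinol on the way to retinoic acid, was higher by 1.05 (SE 0.22), Meis1, a homeobox transcription factor, by 1.29 (SE 0.27), and Matn4, a matrilin of the extracellular matrix, by 0.61 (SE 0.13), each at a limma adjusted p of 0.0489. Matn4 was dim, at 6.02 ± 0.18 (SD, n = 8) in WT top and 5.64 ± 0.24 (SD, n = 8) in WT bottom tumors. A second probe set of Rdh10 gave 1.25 (limma adjusted p = 0.00326), and that of Meis1 gave 1.11 (limma adjusted p = 0.143).

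**Figure D3:**
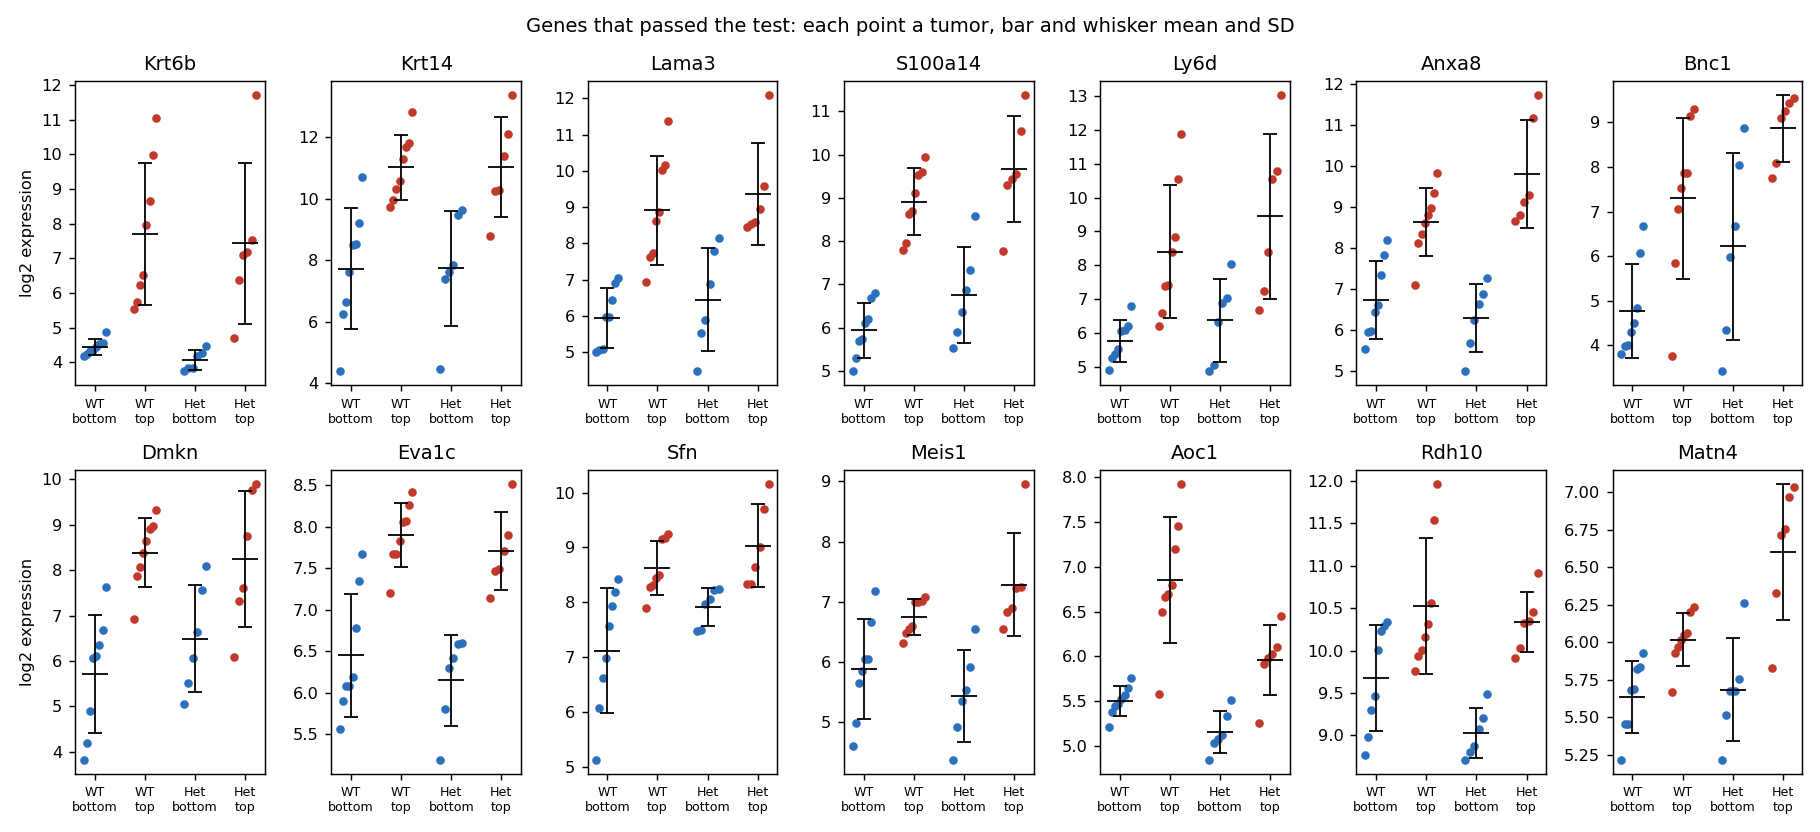
Log2 expression of the 14 genes that passed the test, 1 panel per gene, in the bottom and top tumors of WT hosts (8 each) and Het hosts (6 each); points are tumors, and the bar and whiskers give the mean and SD. Krt6b does not overlap between groups in either host, and S100a14 does not in WT hosts. In Bnc1 1 WT top tumor sits at 3.75, below all WT bottom tumors.

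The calls differed in how they held when single tumors were left out. S100a14, Eva1c, Anxa8, Aoc1, Lama3, Krt6b and Krt14 were called in each of the 28 fits that left out 1 tumor. Dmkn was called in 24. Matn4, Sfn, Rdh10, Bnc1, Ly6d and Meis1 were called in 9, 9, 8, 7, 7 and 6 of 28, with limma adjusted p up to 0.0986. With all tumors each of the latter genes had a limma adjusted p of 0.0489, just under the threshold of 0.05. Their differences moved less, for example from 2.34 to 2.85 for Bnc1 and from 0.94 to 1.12 for Rdh10. No gene changed sign. The count of genes called higher was 38 without Het_irradiated replicate 51. It was 7 without WT_irradiated replicate 12, WT_irradiated replicate 54, Het_sham replicate 19 or Het_sham replicate 52. It was 9 without WT_irradiated replicate 5 or 36, Het_sham replicate 38 or Het_irradiated replicate 26, 29, 47, 55 or 56.

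Promoter sequence of 3 of the called genes and of Sprr1a is shown, so that windows with and without a motif match can be read side by side. Krt14 and Aoc1 were above the bottom median of their host in all 14 top tumors, Dmkn in 13 and Sprr1a, which was not called, in 11. The table of RefSeq promoters (GRCm38.p6) held 9 of the 14 called genes. It was searched for TGANTCA, the binding motif of AP-1, a factor with known roles in keratinocytes; the motif reads the same on both strands. Of 32851 promoters, 6.75% held it in the 250 bases before the start, and of the 9 called genes 2 did, Aoc1 and Dmkn, counting any listed start. The first is a share of single promoters and the second a count of genes, which can have several starts. They are not alike, and enrichment was not tested. The 150 bases before the start are given 5′ to 3′ on the gene's strand, with matches in capitals.
Krt14 (chr11:100206031-100206180, minus strand): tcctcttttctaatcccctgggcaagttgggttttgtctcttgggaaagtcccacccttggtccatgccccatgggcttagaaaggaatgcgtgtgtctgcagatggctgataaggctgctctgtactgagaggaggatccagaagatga
Dmkn (chr7:30763606-30763755, plus strand): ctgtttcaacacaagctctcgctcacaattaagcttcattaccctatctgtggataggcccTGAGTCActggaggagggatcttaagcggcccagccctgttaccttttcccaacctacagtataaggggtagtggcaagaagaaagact
Aoc1 (chr6:48904836-48904985, plus strand): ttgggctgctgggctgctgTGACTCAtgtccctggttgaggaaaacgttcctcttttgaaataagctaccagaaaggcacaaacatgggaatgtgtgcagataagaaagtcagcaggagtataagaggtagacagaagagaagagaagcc
Sprr1a (chr3:92485882-92486031, minus strand): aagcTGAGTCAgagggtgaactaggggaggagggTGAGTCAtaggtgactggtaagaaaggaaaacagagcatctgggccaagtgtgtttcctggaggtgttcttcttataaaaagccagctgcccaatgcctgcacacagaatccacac
The match began at position -89 in Dmkn and -131 in Aoc1, and matches began at -146 and -116 in Sprr1a, relative to the start. Krt14 had no match in the window, and a match is a run of letters, not a measured binding site.

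Cell adhesion and epithelial genes leaned the same way without calls. Of the desmosome list 8 genes were tested, 7 with positive differences and a median of 1.38. Over the 12 on the array without the filter on low values the median was 0.92, with 11 positive. Dsp, desmoplakin, the linker of desmosomes to keratin, had 2.31, Perp 1.94, Dsc2 1.63 and Pkp1 1.57 (limma adjusted p = 0.122, 0.161, 0.227 and 0.122). All 11 tested genes of the epithelial junction list were positive (median 0.91, lowest adjusted p = 0.553), as were 14 of 15 luminal genes (median 0.69), among them Krt19 at 1.70 and Krt7 at 1.90 (limma adjusted p = 0.201 and 0.279). The epithelial junction genes of lowest p differed mainly in WT hosts. Epcam was at 1.80 in WT and 0.14 in Het hosts, Cdh1 at 1.49 and 0.12, and Spint2 at 1.37 and -0.06. Krt8 was at 1.72 and 0.53 and Krt18 at 1.04 and 0.22, whereas Krt19 was at 1.41 and 2.10. Over all genes tested 6257 of 12505 were positive, with a median of 0.00.

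RNA levels of the epithelial junction genes were low in part of the bottom group. The mean of the epithelial junction genes was 11.34 ± 0.22 (SD, n = 8) in WT top and 9.87 ± 2.44 (SD, n = 8) in WT bottom tumors, with exact permutation p = 0.196 (two-sided, 0.927 adjusted over 6 comparisons of array controls). In Het hosts top tumors were at 10.88 ± 0.85 (SD, n = 6), while bottom tumors were at 10.79 ± 1.25 (SD, n = 6; exact permutation p = 0.846, adjusted 0.971). Values below 10 were found in 4 bottom tumors (WT_sham replicate 46, WT_irradiated replicates 11 and 59, and Het_irradiated replicate 29) and in 1 top tumor, Het_sham replicate 19. Vim, a mesenchymal filament gene, was at 14.30 in WT_sham replicate 46 and 14.05 in WT_irradiated replicate 11, and the muscle actin Acta1 reached 13.48 in WT_irradiated replicate 11 and 13.43 in WT_irradiated replicate 59. The mean level of the 11 skeletal muscle genes ran from 4.41 to 11.28 in WT bottom and 4.59 to 5.95 in WT top tumors, but from 4.33 to 6.66 in Het bottom and 4.45 to 9.56 in Het top tumors.

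The comparison was repeated with those arrays set aside or the epithelial score adjusted for. Without the 5 arrays with an epithelial score below 10, limma called 24 genes higher and 4 lower, and 8 of the 14 were among them. Krt14 was then at 2.86, Lama3 at 2.66, S100a14 at 2.76 and Krt6b at 2.85 (limma adjusted p = 0.0419, 0.0373, 0.00148 and 0.0165). Dmkn, at 1.81, and Bnc1, at 2.36, were no longer called (0.0738 and 0.104), nor were Ly6d, Sfn, Rdh10 and Matn4. With the epithelial score as a covariate 41 genes were higher and 7 lower, all 14 included. The added genes of lowest limma adjusted p were Stk17b at 0.72 and Acpp at 1.94 (both 0.00345), Htra1 at 1.71 (0.00811) and Inf2 at 0.96 (0.0141). Nearer the threshold was Klf4, a transcription factor of the epidermal barrier, at 1.24 (limma adjusted p = 0.0396, against 1.03 and 0.185 without the covariate). Calml3, Pof1b, Col7a1, Foxo1 and Runx1 were also added, at limma adjusted p from 0.0291 to 0.0459.

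RNA quality readouts were compared in the same way. The 18S control was 12.91 against 12.39 in WT and 11.73 against 11.92 in Het hosts (top and bottom means, exact permutation p = 0.309 and 0.749), and the 3' minus 5' difference was 0.192 against 0.191 and 0.349 against 0.294 (exact permutation p = 0.971 and 0.563). Without the 3 arrays with an 18S value below 11, of which Het_sham replicate 19 was in the top group, limma called 8 genes higher and 1 lower, and all 8 were among the 14.

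**Figure D4:**
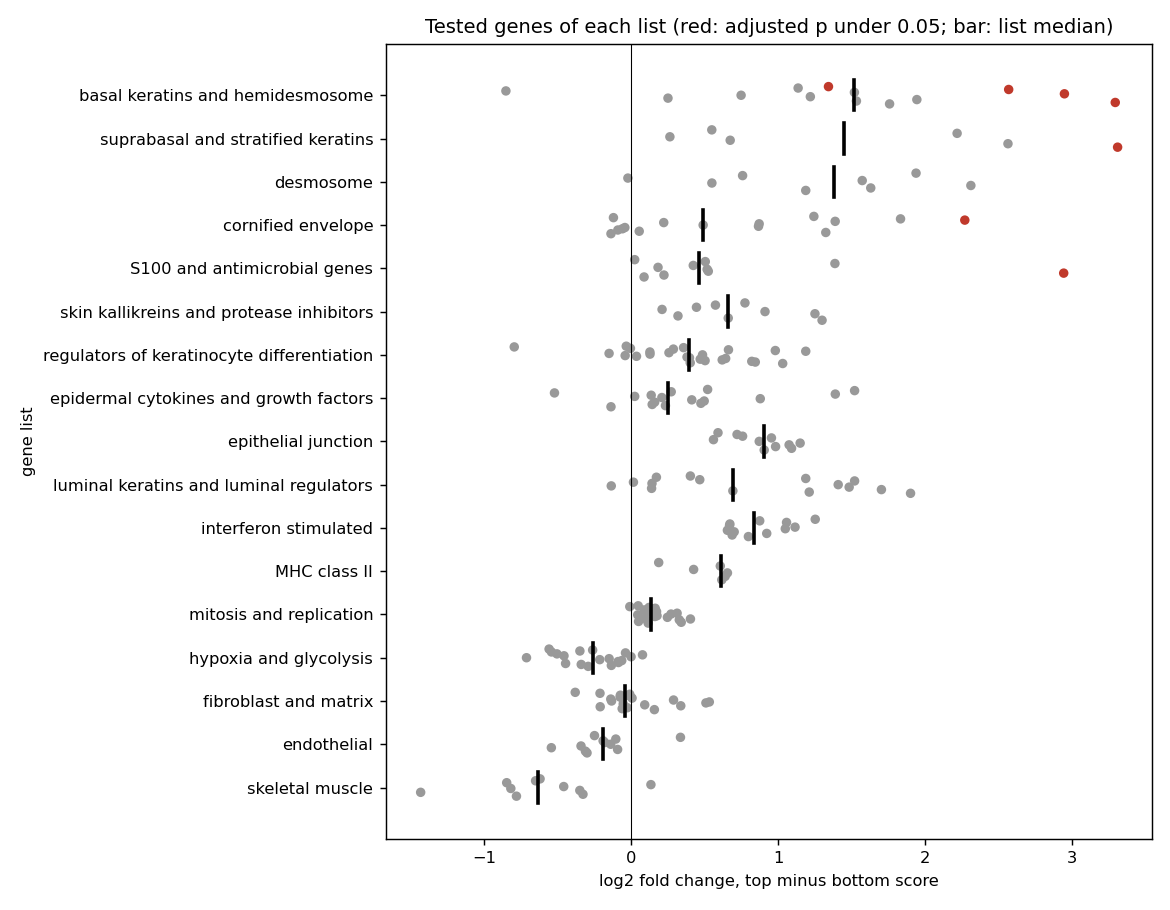
Log2 differences (top minus bottom) of the tested genes of 17 gene lists; red points passed an adjusted p under 0.05, and black bars are list medians. The lists of basal keratins, stratified keratins and desmosome genes have medians between 1.38 and 1.52, while the hypoxia and skeletal muscle lists lie below 0. Only genes that passed the filter on low values are shown, and a gene can pass through the tumors where it is high. Without the filter the medians were 1.52 for basal keratins, 0.29 for stratified keratins and 0.92 for desmosome genes.

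The difference between top and bottom tumors was then examined in each host. Within WT hosts limma called 2 genes higher, S100a14 and Aoc1 (0.016% of genes tested), and within Het hosts 2, S100a14 and Anxa8 (0.016%); 0 were lower in either, with 1103 and 761 genes at an unadjusted p under 0.05. The hosts gave near-equal differences for Krt14 (3.30 in WT, 3.29 in Het), S100a14 (2.97 and 2.91), Lama3 (2.98 and 2.91) and Krt6b (3.27 and 3.37). Anxa8 was at 1.91 in WT and 3.51 in Het hosts, and Meis1 at 0.87 and 1.85. The test for a host-dependent difference passed for none (limma, 0 of 12505 called, 651 at an unadjusted p under 0.05, lowest adjusted p = 0.867). Cpm, a membrane carboxypeptidase, had the widest gap among the genes of lowest p, at 3.03 in WT and -1.71 in Het hosts (difference -4.74, SE 1.24, limma adjusted p = 0.867). Tgfb1, which the Het hosts carry in reduced dose, was at 8.81 ± 0.18 (SD, n = 8) and 8.94 ± 1.01 (SD, n = 8) in WT top and bottom tumors and at 8.44 ± 0.29 (SD, n = 6) and 7.97 ± 0.94 (SD, n = 6) in Het tumors (difference 0.13, SE 0.26, limma adjusted p = 0.922).

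**Figure D5:**
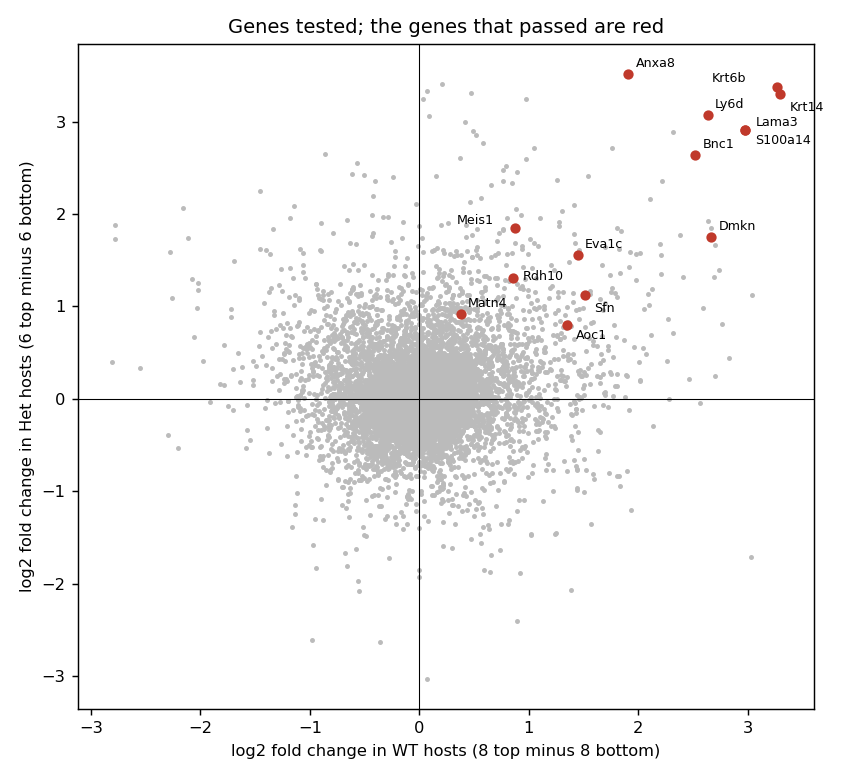
Log2 difference of each tested gene between top and bottom tumors in WT hosts (horizontal axis) and Het hosts (vertical axis); red points are the 14 genes that passed over both hosts. All 14 are positive in both, with Krt14, Krt6b, Lama3 and S100a14 near 3 on both axes; WT and Het tumors are separate samples.

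The 28 tumors of middle score, which the group comparison did not use, covered a narrow range, from 5.96 to 7.07 in WT and from 6.22 to 7.39 in Het hosts. Of these tumors 6 had an 18S control below 11 and 6 an epithelial junction score below 10. There 13 of the 14 genes had a positive slope on the score, against 49.8% of the 12505 genes, and Matn4 was at -0.13. The 14 genes were selected together by 1 score, and the Krt6b probe set can bind Krt6a transcripts. Their slopes are therefore not separate lines of support, and the count carries no test. Lama3 had a slope of 1.29 log2 units per unit of score (unadjusted limma p = 0.0295), S100a14 1.10 (0.0451), Krt14 1.14 (0.0803) and Krt6b 0.77 (0.115). Limma called 0 of 12505 genes (0% in either direction, lowest adjusted p = 1.0, 413 at an unadjusted p under 0.05). The genes of lowest p were Mgarp (1.20), 2810002D19Rik (0.74), Lmo1 (1.67), Padi3, a deiminase of the hair follicle (2.06), and Lekr1 (0.62) among positive slopes, and Pde4b (-0.95), Nfkbid (-0.56), Myo10 (-0.51), Ier3ip1 (-0.44) and Myo1d (-0.79) among negative ones.

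Tumors of irradiated and of sham-irradiated hosts were found in both score groups. In WT hosts 7 of 8 top and 6 of 8 bottom tumors came from irradiated hosts, and in Het hosts 4 of 6 and 5 of 6 (Fisher's exact p = 1.0 in each). The score itself was 6.68 ± 0.92 (SD, n = 23) in irradiated and 6.38 ± 0.56 (SD, n = 9) in sham-irradiated WT hosts, a difference of 0.30 (two-sided exact permutation p = 0.369, 0.369 adjusted over the 2 hosts). Among Het hosts the score was 6.73 ± 0.88 (SD, n = 18) with irradiation, against 7.75 ± 1.97 (SD, n = 6) without, a difference of -1.02 (exact permutation p = 0.0869, adjusted 0.174). Without Het_sham replicate 19 the Het difference was -0.36 (exact permutation p = 0.468).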

How the data were processed

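Affymetrix 3' arrays were hybridised with RNA of 56 tumors (100 ng labelled each), per the labels' protocols. The authors deposited RMA values on a log2 scale for each probe set, per the submitters' processing notes. The 2 host genotypes had distinct array medians and were treated as normalized separately; every contrast lies within a host. Of 45101 probe sets, 34958 had 1 gene symbol. Probe sets had to exceed the overall median (5.83) on 6 arrays or more, and the one of highest mean stood for its gene. Symbols were updated through the GRCm38.p6 annotation, which matched 12489 of 12508 genes.

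The 28 arrays were fitted with limma 3.58.1 (R 4.3.3), with host genotype as a block, within each host, for the difference between hosts, and as a slope on the score in the other 28; p-values were Benjamini-Hochberg adjusted over 12505 genes. p-values measure the spread between these tumors, whose number limits the precision. Single values were compared by exact tests (scipy 1.17.1).

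Groups and the 36 gene lists (558 genes, 387 tested) were chosen with earlier results of these data known. Named genes were the 12 largest log2 differences among calls with 1 sign in both hosts, up to 6 list members of lowest p, the score genes, Tgfb1, and 5 slopes of lowest p per direction; single tumors, Cpm, Krt5, Lamb3, Col17a1, Dst, and genes called only with the epithelial covariate were chosen after values were seen. In simulated data, with 200 of 12505 genes changed, limma recovered 46.8%, 78.6% and 96.5% of 1.5-, 2- and 4-fold changes, and 2.12% of calls were false. The simulation shuffled residuals within each host, whereas the real groups were chosen by a measured score. These rates therefore do not carry over to the calls made here. Alternatives covered filters, probe sets, normalization, moderation, weights, covariates, group sizes, the score and each array left out. Protein sequences were not used here.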

Additional observations from a re-analysis of the deposited data

Results flagged for a closer look

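Among 156 groups of 6 or 8 tumors examined for 1 tumor far from the others, 20 held one; chance alone gives about 1 in 20 groups, and groups that share tumors are not independent.

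Het_sham replicate 19, first by score among all tumors, stood apart in the Het top group with Krt1 at 7.12 (next 4.73). Its epithelial junction score of 9.18 was the lowest there (next 10.90). Krt16 was also flagged in this tumor, at 11.10 (next 7.63). As Krt16 is part of the score that chose the group, its high value there is no separate finding. Het_irradiated replicate 32 stood apart in the same group with Krt4 at 9.09 (next 5.17), Krt78 at 9.24 (next 6.23) and Meis1 at 8.96 (next 7.24), and, at low levels, with Ivl at 4.64 and Dsc3 at 4.33. Het_irradiated replicate 56 had the highest Lama3, 12.09 (next 9.59).

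Among WT top tumors, WT_irradiated replicate 12 was highest for Krt2 at 3.25 and for Casp14 at 7.02, WT_irradiated replicate 24 for Flg at 3.41, and WT_irradiated replicate 36 was lowest for Rptn at 3.34. Among WT bottom tumors, WT_irradiated replicate 39 had Krtdap at 4.04 and the lowest Ivl, 4.75, and WT_irradiated replicate 21 had Rptn at 4.09. These gaps are under 0.5 log2 units and lie at dim probe sets, apart from Casp14. WT_irradiated replicate 59 had an 18S control of 9.46, the next lowest being 11.95.

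Among Het bottom tumors, Het_irradiated replicate 29 had Sprr1a at 7.65 (next 5.29) and the lowest epithelial junction score, 8.26 (next 11.10), and Het_sham replicate 52 had Lor at 7.31 (next 6.26).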

How the results depend on the processing

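Genes called higher (14) and higher by at least 2-fold (13) became 8 and 8 without a filter, with all arrays quantile normalized together, with trended and robust eBayes, and without the arrays with low 18S; 41 and 31 with the epithelial junction score as a covariate; 4 and 4 for the top and bottom 5 WT plus 4 Het tumors; 7 and 6 for the upper 16 WT plus 12 Het tumors against the rest; and 0 and 0 with the standardized score. Genes called higher numbered 30 with the score as a continuous variable over 56 arrays and 24 without the arrays of low epithelial score. Genes called lower (0) became 2 with array weights, 7 with the epithelial covariate, 1 with the 18S covariate, the 3' minus 5' covariate or host irradiation as a further block, 3 with the continuous score, 1 without the arrays of low 18S and 4 without those of low epithelial score. Leaving out each array gave 7 to 38 genes higher, 0 to 4 lower, 7 to 28 higher by at least 2-fold and 0 to 1 lower by at least 2-fold. The cause of these shifts was not tested, and some settings also had fewer tumors. The difference between hosts and the slope in the other arrays stayed at 0 called genes in each alternative run. None of the 14 genes changed sign under these alternatives, among which single genes were not followed under the filter alternatives. Under the standardized score Matn4 was at 0.01. The alternatives share many tumors with the comparison that selected these genes, so a kept sign is no separate support. No paired analysis was possible because replicate numbers do not recur across groups. Removing low arrays was chosen after seeing the data. Signal over background per probe was not analysed here, so dim genes such as Matn4 and Aoc1 rest on small differences.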

Other observations

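Interferon-stimulated genes leaned toward the top-score tumors: all 12 tested had positive differences (median 0.84) and 10 had an unadjusted p under 0.05, but limma called none (lowest adjusted p = 0.204). Among all genes tested, 1178 of 12505 had an unadjusted limma p under 0.05. Gbp2, a guanylate-binding protein of the interferon response, was at 1.25 (SE 0.36), with 1.41 in WT and 1.05 in Het hosts. Mx1, an antiviral GTPase, was at 1.12 (SE 0.34, limma adjusted p = 0.227), with 1.75 in WT and 0.27 in Het hosts. Mx2 (1.08 and 0.12), Usp18 (1.57 and 0.37) and Oas1a (0.96 and 0.25) also differed mainly in WT hosts, whereas Oas2 was at 0.95 and 1.19. The 6 tested genes of MHC class II were also positive (median 0.61, lowest adjusted p = 0.559).

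Genes of hypoxia and glycolysis leaned the other way, with 18 of 19 negative, a median of -0.26 and 0 called (lowest adjusted p = 0.537). Car9, a carbonic anhydrase induced by low oxygen, was at -0.71 (SE 0.45, limma adjusted p = 0.65). Of 22 genes of mitosis and replication 21 were positive, but the median was only 0.14. Over all genes 6257 of 12505 were positive.

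The gene of lowest p among those lower in top-score tumors was Ube2e2, a ubiquitin-conjugating enzyme, at -0.68 (SE 0.15, limma adjusted p = 0.0593), with -0.66 in WT and -0.72 in Het hosts. Gaa, the lysosomal glucosidase of glycogen breakdown, was at -0.45 (limma adjusted p = 0.0835), and was called with the epithelial score as a covariate (-0.52, limma adjusted p = 0.0174). These genes fall outside the rule for named genes and were chosen after their values were seen. Among Wnt pathway genes, Lgr6, a receptor found on stem cells of the hair follicle, was at 1.74 and Wnt7b, a ligand, at 1.08 (limma adjusted p = 0.201 and 0.199).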
